A study of Mus musculus with 12 samples.

Results

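The germ cell glycolysis isozymes described here are Gapdhs, Pgk2, Ldhc, Pgam2, Eno4, Hk1 and Aldoart1. These 7 genes were taken by symbol from a table of 21004 genes, and all 7 were found in it, each in a single row. Testis RNA of ICR mice, an outbred strain, aged 8 weeks, was sequenced in 12 libraries. Each of the 4 groups has 3 libraries: control, busulfan, L.J. given at 10 mg/kg, and both treatments with the same dose of L.J. Busulfan is an alkylating drug that kills dividing germ cells, what L.J. stands for is left unexplained in the labels, and the series text speaks of FMT without saying which group received it. The sources used here give neither the dose of busulfan nor the time from treatment to sampling, and the labels do not say that a group's libraries come from separate mice, so p-values measure the spread between libraries, which may be technical. All values are FPKM as deposited, fragment counts divided by the length of the transcript and the library's mapped total. This measure is meant to let levels of different genes be compared. The sources used here do not say how lengths and shared reads were handled, so such comparisons are approximate.

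Glycolysis splits glucose into pyruvate in a chain of enzymes, and lactate dehydrogenase at its end turns pyruvate and lactate into each other. Late male germ cells replace several of these enzymes by forms of their own, many of them encoded by genes that arose as copies of a somatic gene. Sperm use them to make ATP along the tail, where several are held on the fibrous sheath. Hk1, hexokinase, phosphorylates glucose at the start of the chain. Aldoart1, a retrogene of aldolase A, belongs to the step that cleaves the sugar. Gapdhs, the sperm glyceraldehyde-3-phosphate dehydrogenase, Pgk2, phosphoglycerate kinase, Pgam2, phosphoglycerate mutase, and Eno4, a sperm enolase, follow in that order. Ldhc is the germ cell lactate dehydrogenase. Hk1 and Pgam2 are not limited to germ cells: Hk1 is used in many tissues, and Pgam2 is the muscle form of its enzyme.

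In the annotations of the build GRCm38, Gapdhs (gene 14447) lies on chromosome 7 from 30729779 to 30744791, and Ldhc (16833) on the same chromosome from 46861263 to 46878147. Ldhc starts 5635 bases after the end of Ldha, the somatic gene of the same enzyme. Pgk2 (18663) lies on chromosome 17 from 40207018 to 40208609, and Aldoart1 (353204) on chromosome 4 from 72850583 to 72852634, and each has 1 exon. Pgam2 (56012) lies on chromosome 11 from 5801637 to 5803796 with 3 exons, Eno4 (226265) on chromosome 19 from 58934058 to 58971421, and Hk1 (15275) on chromosome 10 from 62268855 to 62379920. Antisense transcripts overlap Gapdhs and Hk1 on the other strand, and the coding gene Hspa12a overlaps Eno4. Whether strand was used in counting is not given in the sources used here, so reads of those overlaps cannot be told apart. Of the 50-base stretches in Aldoart1 transcripts, 5.79% also occur in transcripts of other genes, among them Aldoa and Aldoart2. This makes the level of Aldoart1 less certain. The other 6 isozymes shared no such stretch with transcripts read in their own direction. Overlaps on the other strand, as for Gapdhs, Hk1 and Eno4, were not searched in this way.

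RefSeq promoter windows, from 250 bases before a transcription start through the first 50 bases from it (GRCm38.p6), were matched for 6 of the 7 isozymes; Aldoart1 was not matched. The windows of the most upstream start in that table are printed for 3 isozymes that were higher in the libraries labelled busulfan, and for Ldhc, for which no difference was called. Capitals mark TGACATCA or TGACG on either strand, that is, a variant of the cAMP response element TGACGTCA and the short core of that element, and the window of Pgk2 has none. These motifs were chosen after the sequences had been seen.
Gapdhs, chr7:30743632-30743931, minus strand: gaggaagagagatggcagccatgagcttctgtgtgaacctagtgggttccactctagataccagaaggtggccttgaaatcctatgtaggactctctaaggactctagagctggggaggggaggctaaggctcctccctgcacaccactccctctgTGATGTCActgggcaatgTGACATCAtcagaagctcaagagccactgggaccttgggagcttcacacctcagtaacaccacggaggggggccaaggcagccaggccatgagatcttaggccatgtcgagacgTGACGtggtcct
Hk1, chr10:62379859-62380158, minus strand: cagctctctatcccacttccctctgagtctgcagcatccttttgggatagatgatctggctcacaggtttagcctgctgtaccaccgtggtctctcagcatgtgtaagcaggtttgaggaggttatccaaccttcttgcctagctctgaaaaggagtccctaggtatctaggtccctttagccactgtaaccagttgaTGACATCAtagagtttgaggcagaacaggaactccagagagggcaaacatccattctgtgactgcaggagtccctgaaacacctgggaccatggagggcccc
Pgk2, chr17:40208560-40208859, minus strand: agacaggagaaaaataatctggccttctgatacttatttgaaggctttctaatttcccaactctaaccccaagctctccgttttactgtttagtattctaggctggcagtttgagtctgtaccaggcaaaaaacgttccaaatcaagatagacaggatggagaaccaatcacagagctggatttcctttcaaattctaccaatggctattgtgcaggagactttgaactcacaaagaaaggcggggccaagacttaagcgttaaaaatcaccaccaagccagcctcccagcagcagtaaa
Ldhc, chr7:46861013-46861312, plus strand: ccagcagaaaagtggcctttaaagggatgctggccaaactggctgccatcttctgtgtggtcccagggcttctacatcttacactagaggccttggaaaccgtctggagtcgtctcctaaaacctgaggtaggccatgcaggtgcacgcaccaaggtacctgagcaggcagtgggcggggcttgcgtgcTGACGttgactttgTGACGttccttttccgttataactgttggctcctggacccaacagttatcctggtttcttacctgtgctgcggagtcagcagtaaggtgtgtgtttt

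The window of Gapdhs held TGACATCA at 2 places, beginning at -94 and -76 from the start, and that of Hk1 held it at -52. Pgam2 held it at -225, and the windows of Pgk2, Ldhc and Eno4 did not contain these letters. Of all 32851 promoter windows in the table, 3.62% contained TGACATCA. Ldhc held TGACG at -61 and -47 and Gapdhs at 39, and 20.8% of all windows contained it. The full element TGACGTCA, found in 1.79% of all windows, was in none of the windows of the 6 isozymes. CCAAT and GGGCGG were searched as well, on either strand, and 37.4% and 35.7% of all windows contained them. Pgk2 held CCAAT at -86 and -52 and Pgam2 at -246 and 9, and Ldhc held GGGCGG at -78. The table has a further start for 3 isozymes, downstream of the printed one by 4274 bases for Gapdhs, 224 bases for Ldhc and 39487 bases for Hk1. The further window of Gapdhs held TGACATCA at -70 and -52, and those of Ldhc and Hk1 held none of these motifs. From -52 to its end, that further window of Gapdhs repeats letters of the printed window, so the windows are not independent. Gene-level FPKM do not separate the starts.

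The sum of FPKM per library was 417242 to 535515, and 18674 to 19151 genes lay above 0. The files hold no read counts. In genes with low values throughout, the values near a gene's minimum averaged 0.99 to 1.03 of their median in every library, a measure held near 1 by the choice of those values, so library depth is unknown. Libraries labelled busulfan did not show the loss of late germ cell transcripts that the drug is known for. The mean log2(FPKM + 1) of 10 elongating spermatid markers, such as the protamines Prm1 and Prm2, was 11.09 to 11.42 in all 6 libraries with busulfan in their label. The control libraries had means of 7.81, 9.31 and 7.26, and the L.J. libraries of 8.77, 10.47 and 8.29, in order of replicate. For 12 Sertoli cell markers it ran from 3.93 to 4.24 in the first 6 libraries and from 4.68, in L.J. replicate 2, to 6.71, in L.J. replicate 3, in the others. Whether the labels match the treatments given was not tested. Groups are called by their labels, every direction is between labelled groups, and results that rest on L.J. replicates 2 and 3 are given with and without them. In a whole testis, fewer cells of a type and less RNA per cell cannot be told apart.

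In the libraries with the busulfan label, 4 isozymes were higher than in those labelled control: Gapdhs, Hk1, Aldoart1 and Pgk2, in falling order of their change. Pgam2 was 1.55-fold higher on the scale of FPKM + 1 and missed the threshold, and Ldhc and Eno4 did not pass either, with changes of 0.25 and -0.29 log2. The order was the same with both treatments, where Pgam2 also passed. These directions hold as deposited, after quantile normalization, median scaling and scaling to Sertoli markers for the 4 isozymes, and turn negative for all 4 in busulfan against control when libraries are scaled to elongating spermatid markers.

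Gapdhs had 230, 529 and 130.01 FPKM in the control libraries, in order of replicate, and 1466, 2094 and 1855 FPKM in the busulfan libraries. It had 397, 1310.5 and 266 FPKM in the L.J. libraries and 2096, 2021 and 3058 FPKM in the libraries of both treatments. All 6 libraries with busulfan in their label lay above all 6 others, the nearest being L.J. replicate 2. The log2 change of Gapdhs was 2.83 ± 0.58 (SE, n = 3 against 3) in busulfan against control, with an adjusted p of 0.00448 by limma.

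Hk1 had 131, 223 and 113 FPKM in the control libraries and 544, 650.3 and 590.2 FPKM in the busulfan libraries. It had 180.1, 403 and 124 FPKM in the L.J. libraries and 613, 622 and 629 FPKM with both treatments. The same 6 libraries were again the highest, and within them Hk1 varied by 1.2-fold. Its log2 change in busulfan against control was 1.99 ± 0.37, with an adjusted p of 0.00387 by limma.

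Aldoart1 was lower in level than these, with 19.9, 30.9 and 16.3 FPKM in the control libraries and 67.0, 70.0 and 73.6 FPKM in the busulfan libraries. It had 25.9, 49.5 and 16.5 FPKM in the L.J. libraries and 77.9, 66.3 and 65.7 FPKM with both treatments. Groups with and without busulfan in the label did not overlap. The log2 change of Aldoart1 was 1.65 ± 0.32, with an adjusted p of 0.00412 by limma.

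Pgk2 had 117, 186 and 110.4 FPKM in the control libraries and 418, 334 and 400.4 FPKM in the busulfan libraries. It had 155, 272 and 88.5 FPKM in the L.J. libraries and 352, 323 and 334 FPKM with both treatments. L.J. replicate 3 was the lowest of the 12 libraries and busulfan replicate 1 the highest. The log2 change of Pgk2 was 1.51 ± 0.34, with an adjusted p of 0.0055 by limma.

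Pgam2 had 305, 422 and 277 FPKM in the control libraries and 538, 486 and 514 FPKM in the busulfan libraries. It had 410.3, 439 and 185 FPKM in the L.J. libraries and 580.1, 532 and 560 FPKM with both treatments. The busulfan libraries lay above the control libraries without overlap, yet the log2 change of 0.64 ± 0.30 had an adjusted p of 0.0779 by limma. That adjusted p fell to 0.00328 without L.J. replicate 3, to 0.0492 without control replicate 2, to 0.00447 without L.J. replicates 2 and 3, and to 0.0147 in a fit of control and busulfan alone. Pgam2 had 1.197 after median scaling and 2.18 on the Sertoli scale, with adjusted p of 0.0411 and 0.0425 by limma, and 0.27 with quantile normalization (adjusted p = 0.384). Because Pgam2 is also the muscle form, 10 striated muscle markers were read beside it, and their summed level was 3.95 to 18.5 FPKM per library, highest in control. Acta1 of that list was at 0 in all 3 L.J. libraries. Of its 3 markers tested in busulfan against control, 0 were called higher and 1 was called lower, where 51.4% of all genes were called lower. The rest of the list did not pass the filter on low values, and the cells that Pgam2 comes from were not tested.

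Ldhc had 1329, 1645 and 1244 FPKM in the control libraries and 1585, 1644 and 1757 FPKM in the busulfan libraries. It had 1692, 1477 and 791 FPKM in the L.J. libraries and 1683, 1412 and 1714 FPKM with both treatments. The groups overlapped, and L.J. replicate 3 stood below the other 11 libraries. The log2 change of Ldhc in busulfan against control was 0.25 ± 0.30, with a 95% interval from -0.40 to 0.90 and an adjusted p of 0.472 by limma. It was -0.32 with quantile normalization, where the adjusted p was 0.149. After median scaling it was 0.81 and on the Sertoli scale 1.79, neither of them called.

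Eno4 was the lowest of the 7, with 12.8, 18.2 and 11.6 FPKM in the control libraries and 13.8, 9.13 and 11.3 FPKM in the busulfan libraries. It had 13.3, 19.4 and 9.95 FPKM in the L.J. libraries and 9.96, 9.8 and 9.95 FPKM with both treatments. Its highest libraries were L.J. replicate 2 and control replicate 2. The log2 change of Eno4 in busulfan against control was -0.29 ± 0.24, with a 95% interval from -0.81 to 0.23 and an adjusted p of 0.297 by limma. That change was positive and not called on 3 other scales, with 0.20 after quantile normalization, 0.27 after median scaling and 1.26 on the Sertoli scale.

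**Figure D1:**
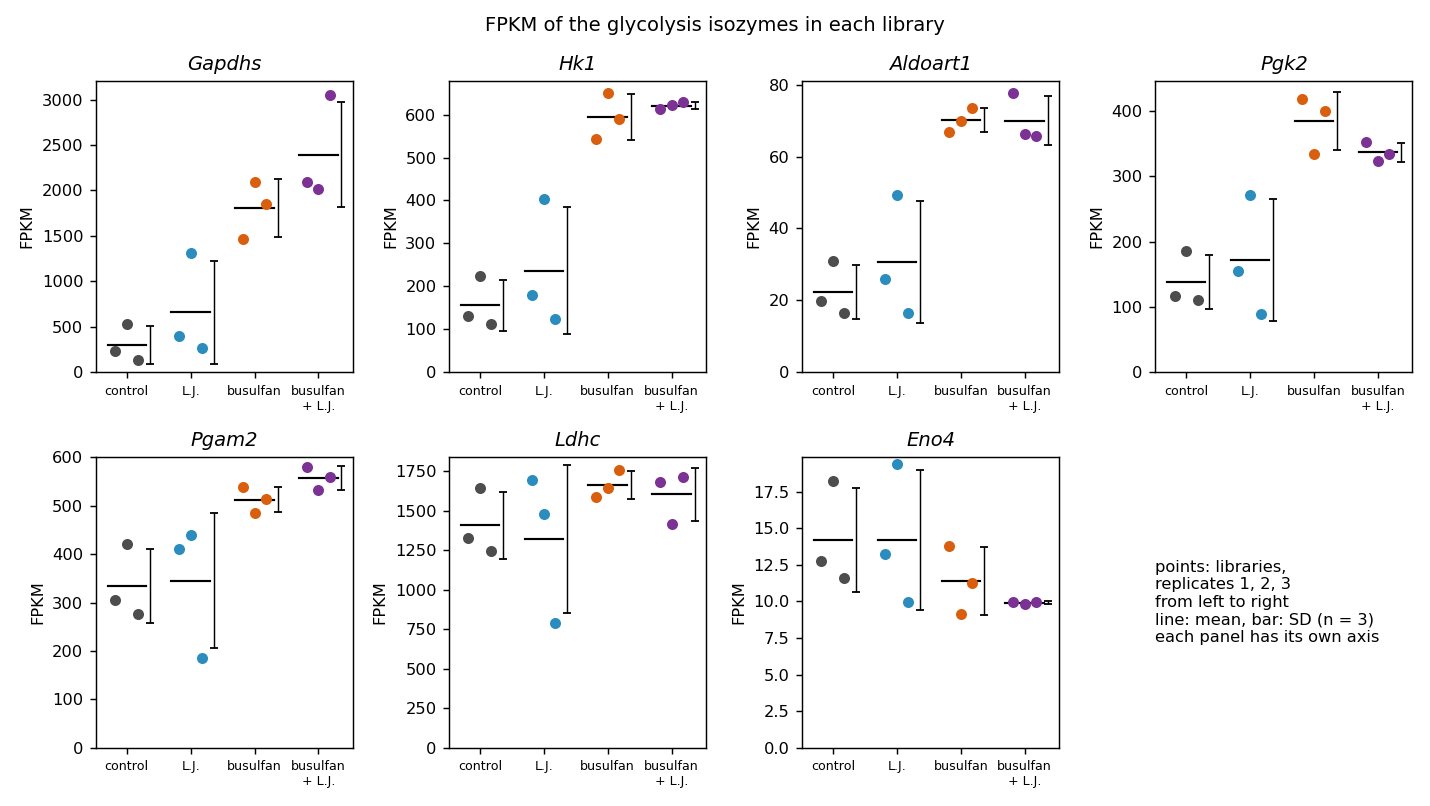
FPKM of each isozyme (vertical axis, from 0, its own scale in each panel) in the 12 libraries, by labelled group; points are libraries, lines are means and bars are SDs (n = 3). The 6 libraries with busulfan in their label lie above the other 6 for Gapdhs, Hk1, Aldoart1, Pgk2 and Pgam2, whereas Ldhc overlaps between groups and Eno4 does not follow this order.

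Of the 7 isozymes, 4 were called higher and 0 lower in busulfan against control, where limma called 63.7% of 14675 genes, 12.4% higher and 51.4% lower. Their median log2 change was 1.51, against -0.51 for all genes tested. All 7 isozymes passed the filter on low values. The busulfan and control libraries did not overlap for 5 isozymes, all higher, where the groups did not overlap for 76.8% of all genes, 16.1% with busulfan higher and 60.7% with busulfan lower. Scaling moved the median of all genes, which was -0.16 after quantile normalization, 0.05 after median scaling, 1.04 after scaling to Sertoli markers and -3.60 after scaling to elongating spermatid markers. Relative to the median as deposited, the log2 changes were 3.33 for Gapdhs, 2.50 for Hk1, 2.16 for Aldoart1, 2.02 for Pgk2, 1.15 for Pgam2, 0.76 for Ldhc and 0.22 for Eno4. Marker lists were read as deposited, beside the 12.4% of all genes called higher and 51.4% called lower. All 10 elongating spermatid markers and 5 of 10 round spermatid markers were called higher. Called lower were 6 of 10 markers of meiotic spermatocytes, 6 of 8 of spermatogonia tested, 12 of 12 of Sertoli cells and 8 of 8 of Leydig cells. The meiotic markers were near the background, with a median log2 change of -0.49 against -0.51 for all genes. All 8 macrophage and all 5 peritubular myoid markers were lower, as was 1 of 6 red cell markers and 1 of 3 striated muscle markers tested. The part of these cell types in the isozyme changes was not tested.

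With both treatments against control, 5 of 7 isozymes were called higher and 0 lower, where limma called 66.5% of genes, 13% higher and 53.5% lower. The log2 changes were 3.22 ± 0.58 for Gapdhs, 2.05 ± 0.37 for Hk1, 1.65 ± 0.32 for Aldoart1 and 1.32 ± 0.34 for Pgk2, with adjusted p of 0.00217, 0.00218, 0.00263 and 0.00671 by limma. Scaled to elongating spermatid markers, that of Gapdhs was 0.04 and the other 3 turned negative. Pgam2 had 0.76 ± 0.30, with an adjusted p of 0.0406 by limma that rose above the threshold when any 1 of 8 libraries was left out. It was 0.0526, 0.0525 and 0.0552 without busulfan replicates 1 to 3, and 0.0942, 0.0746 and 0.0866 without the 3 libraries of both treatments. It was 0.107 and 0.135 without control replicates 1 and 3, 0.0614 without a filter on low values and 0.315 with quantile normalization. Ldhc had 0.19 ± 0.30 and Eno4 -0.45 ± 0.24, with adjusted p of 0.575 and 0.107 by limma. The groups did not overlap for 6 isozymes, 5 higher and Eno4 lower, against 80.7% of all genes, 17.2% higher and 63.4% lower. For Eno4 the adjusted p was 0.0379 without L.J. replicates 2 and 3 and 0.0358 in a fit of those groups alone. With quantile normalization its change was 0.09, with median scaling 0.15 and on the Sertoli scale 1.01, none of them called. Ldhc turned to -0.48 after quantile normalization and was called lower there (adjusted p = 0.0407 by limma). This comparison and the previous one share the control libraries.

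**Figure D2:**
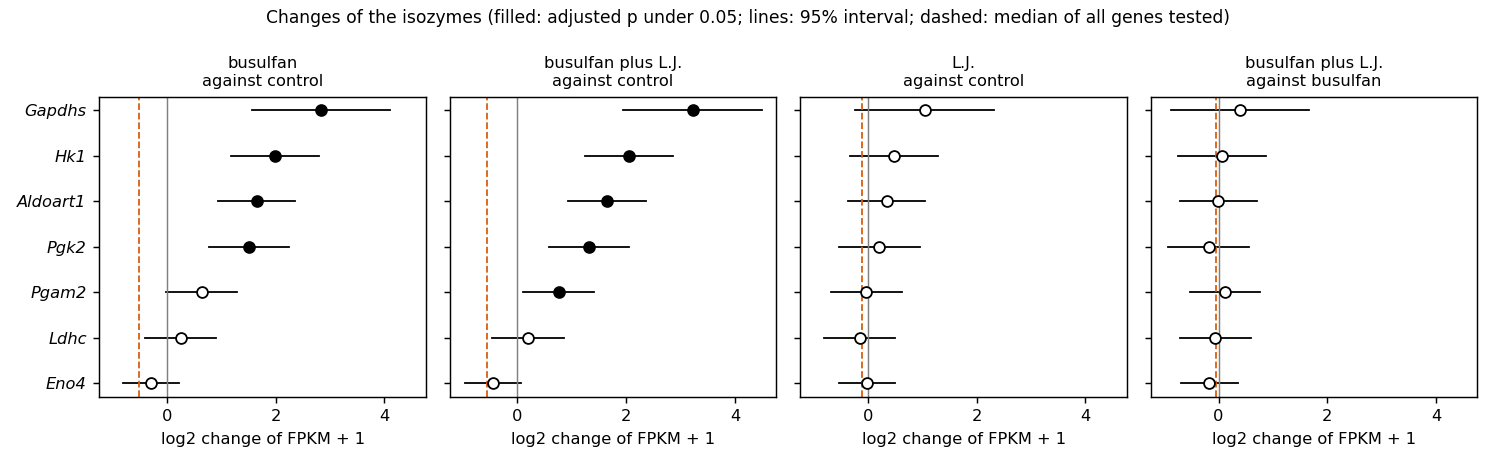
Log2 change of FPKM + 1 of each isozyme (horizontal axis) in 4 comparisons, with 95% intervals; filled points have an adjusted p under 0.05 by limma and the dashed line is the median of all genes tested. The 4 isozymes called higher in busulfan against control run from 1.51 for Pgk2 to 2.83 for Gapdhs as deposited, all of them negative when scaled to elongating spermatid markers, and no isozyme was called in the panels on the right.

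Whether L.J. moved the isozymes in testis labelled busulfan, the rescue named in the series title, is asked by busulfan plus L.J. against busulfan. No isozyme passed by limma, adjusted or at an unadjusted p under 0.05, and limma called 0% of genes, with 109 genes at an unadjusted p under 0.05. The log2 changes ran from -0.18 ± 0.34 for Pgk2 to 0.39 ± 0.58 for Gapdhs, and the groups overlapped for all 7 isozymes. Over all genes, 8.58% did not overlap, 3.39% higher and 5.19% lower. The 95% interval was -0.88 to 1.66 for Gapdhs and -0.74 to 0.88 for Hk1, so changes of those sizes cannot be told from 0 in these libraries. For Ldhc the interval was -0.71 to 0.60.

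L.J. against control gave 0 isozymes past the threshold by limma, adjusted or unadjusted, and 0% of genes called, with 715 genes at an unadjusted p under 0.05. All 7 isozymes overlapped, and of all genes 9.07% did not, 1.1% higher and 7.97% lower. Gapdhs had the highest log2 change, 1.04 ± 0.58 (adjusted p = 0.843 by limma), and Ldhc the lowest, -0.15 ± 0.30 (adjusted p = 0.944). Without L.J. replicate 2 the changes ran from -0.27 for Ldhc to 0.37 for Gapdhs, and without L.J. replicate 3 all 7 were positive, from 0.18 for Ldhc to 1.52 for Gapdhs. None was called in either case. Scaled to elongating spermatid markers, Gapdhs had -0.01. The L.J. libraries differed widely among themselves: Gapdhs was 658 ± 569 FPKM (SD, n = 3) there and 296 ± 208 FPKM in control. L.J. replicate 2 was the highest of the 6 libraries without busulfan in the label for 6 isozymes, with Ldhc as the exception, and L.J. replicate 3 was the lowest for Pgk2, Pgam2, Ldhc and Eno4. Control replicate 3 was the lowest for Gapdhs, Hk1 and Aldoart1. The interaction, which asks whether the L.J. difference depends on busulfan, was not called for any isozyme by limma, nor at an unadjusted p under 0.05. Its log2 values ran from -0.64 ± 0.82 for Gapdhs to 0.15 ± 0.42 for Pgam2, and 0% of genes were called, with 182 at an unadjusted p under 0.05. Without L.J. replicate 2 the 7 values were all positive, from 0.01 for Pgk2 to 0.38 for Pgam2, and without L.J. replicate 3 all negative, from -1.12 for Gapdhs to -0.24 for Ldhc. Gapdhs had -0.17 without control replicate 3, -1.18 without control replicate 2 and 0.32 when scaled to elongating spermatid markers.

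The order of levels differed between groups. In control, Ldhc led with 1406 ± 211 FPKM (SD, n = 3), followed by Pgam2 with 334 ± 76.8 and Gapdhs with 296 ± 208. Pgam2 lay above Gapdhs in control replicates 1 and 3 and below it in control replicate 2. Hk1 with 156 ± 59.3 and Pgk2 with 138 ± 41.6 came next, and Hk1 lay above Pgk2 in every library. Aldoart1 and Eno4 closed the order with 22.4 ± 7.57 and 14.2 ± 3.52 FPKM. In busulfan, Gapdhs with 1805 ± 317 and Ldhc with 1662 ± 87.6 were at the top. Ldhc was the higher of them in busulfan replicate 1 and Gapdhs in busulfan replicates 2 and 3. Hk1 with 595 ± 53.2, Pgam2 with 512 ± 26 and Pgk2 with 384 ± 44.5 came next, then Aldoart1 with 70.2 ± 3.33 and Eno4 with 11.4 ± 2.32 FPKM. The 7 isozymes summed to 1902 to 3054 FPKM in the control libraries and to 4632 to 5287 FPKM in the busulfan libraries.

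Each isozyme was also read relative to the mean log2 value of germ cell marker lists, which ran over the 12 libraries from 7.26 to 11.42 for elongating spermatids, from 5.37 to 7.15 for round spermatids and from 5.54 to 6.23 for meiotic spermatocytes. Gapdhs ranged over 4.55 log2 between its highest and lowest library, and over 0.73 when the mean of the elongating spermatid markers was subtracted in each library. Pgam2 ranged over 1.64 log2, and over 0.42 relative to 10 round spermatid markers of the acrosome and nucleus such as Acr and Sun5. Pgk2 and Aldoart1 were also steadiest relative to round spermatids, with ranges of 0.91 and 1.03 against 2.23 and 2.19 as deposited. Hk1 lay between, with 1.42 relative to round and 1.69 relative to elongating spermatids against 2.52 as deposited. Ldhc ranged over 1.15 as deposited, 0.96 relative to round spermatids and 1.23 relative to meiotic spermatocytes. Eno4 ranged over 1.01 as deposited and was steadiest relative to meiotic spermatocytes, with 0.73, against 4.36 relative to elongating spermatids. Relative to Sertoli markers the ranges were 2.93 to 6.39, wider than as deposited for all 7. These ranges are descriptions of values that share libraries, and differences between isozymes were not tested.

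**Figure D3:**
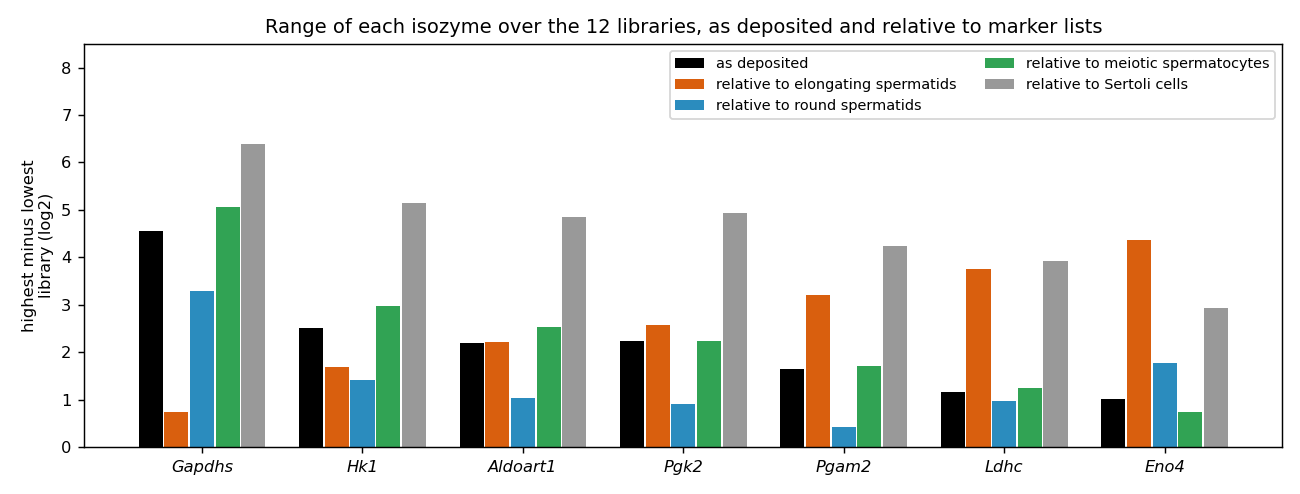
Highest minus lowest log2(FPKM + 1) over the 12 libraries for each isozyme, as deposited and after subtracting the mean of a marker list in each library. The shortest bar is that relative to elongating spermatids for Gapdhs (0.73), to round spermatids for Hk1, Aldoart1, Pgk2, Pgam2 and Ldhc, and to meiotic spermatocytes for Eno4 (0.73).

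**Figure D4:**
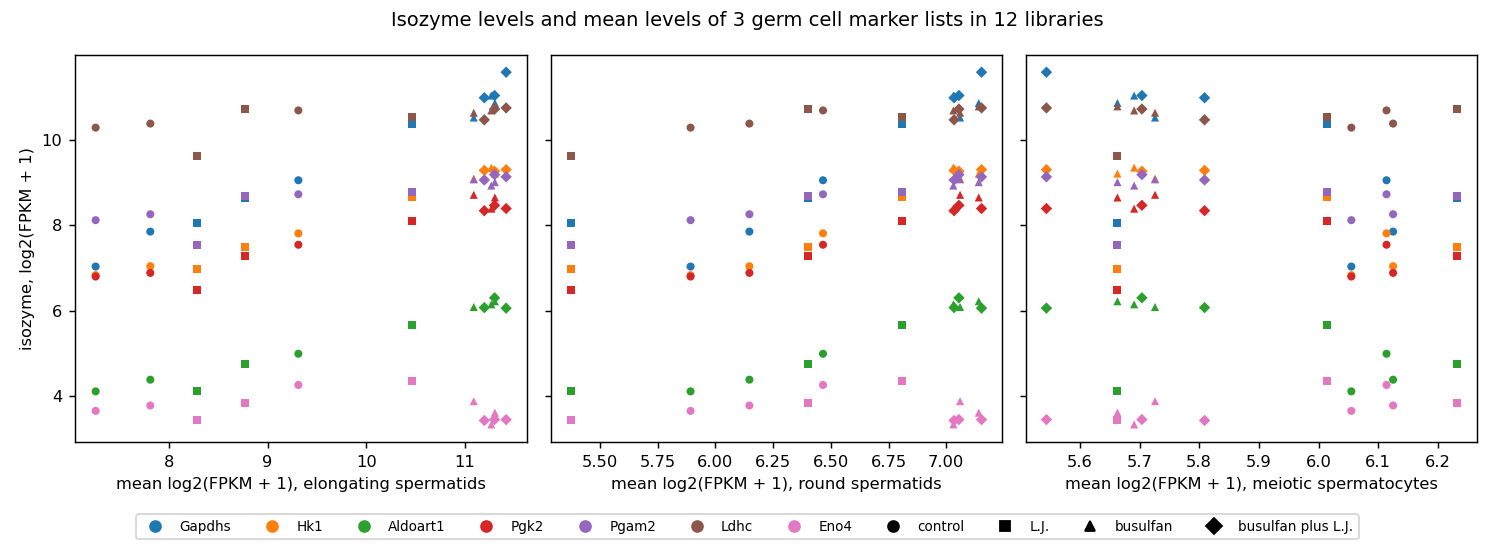
Log2(FPKM + 1) of each isozyme against the mean of 10 elongating spermatid, 10 round spermatid or 10 meiotic spermatocyte markers in the 12 libraries; colours are isozymes and symbols are labelled groups. Gapdhs climbs with the elongating spermatid markers over their whole range, and Ldhc and Eno4 span 1.15 and 1.01 log2 in all.

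When libraries were scaled to the elongating spermatid markers, the log2 change of Gapdhs in busulfan against control was -0.27 (adjusted p = 0.521 by limma). On that scale Hk1 had -1.10, Aldoart1 -1.44, Pgk2 -1.59, Pgam2 -2.46, Ldhc -2.84 and Eno4 -3.38, all 6 called lower. This scaling lowers nearly everything, with 14238 of 14675 genes called lower and 0 higher, so the calls of the 6 are near the background. Within each library, Gapdhs lay between 0.57 log2 below and 0.16 above the mean of these markers (-0.57 to 0.16), in busulfan replicate 1 and busulfan plus L.J. replicate 3.

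Each isozyme was set beside another form of the same enzyme. Hk1 and Pgam2 are not limited to germ cells, so their shares are not those of a germ cell form alone. Gapdhs made up 37.7%, 67.7% and 21.5% of the FPKM of Gapdhs plus Gapdh in the control libraries and 89.1% to 92.1% in the busulfan libraries. In the L.J. libraries its share was 56.6%, 82.9% and 31%, and with both treatments 91.1% to 92.4%. The shares of the 6 libraries with busulfan in their label lay above those of the other 6. Pgk2 was at least 84.1% of Pgk2 plus Pgk1 in every library and 98.0% to 98.4% in busulfan. Pgam2 was 76.3% to 89.0% of Pgam2 plus Pgam1 in control, 95.4% to 96.4% in busulfan and as low as 62.5% in L.J. replicate 3. Ldhc held 79.0% to 81.1% of Ldhc plus Ldha in control and 81.0% to 85.4% in busulfan. Hk1 was 90.8% to 97.3% of Hk1 plus Hk2 in control and 99.3% to 99.6% in busulfan. Aldoart1 and Eno4 were the minor forms throughout, with 6.46% to 12.7% and 10.97% to 15.7% of the pair in control and 20.8% to 25.2% and 8.88% to 10.8% in busulfan.

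**Figure D5:**
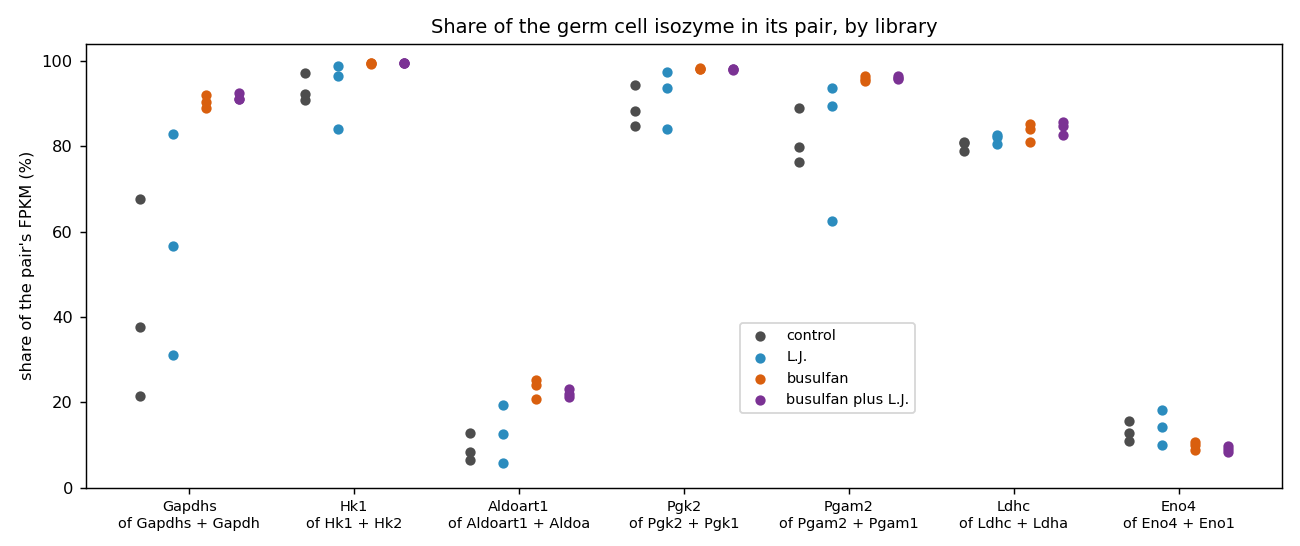
Share of each isozyme in the summed FPKM of itself and its counterpart (vertical axis, percent) in each of the 12 libraries, coloured by labelled group. Gapdhs spans 21.5% to 92.4%, Ldhc stays between 79.0% and 85.8%, and Aldoart1 and Eno4 are the minor forms of their pairs.

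Of 12 somatic counterparts, 10 were tested and 7 were called lower in busulfan against control, with 0 higher and a median log2 change of -0.98. Over all genes tested, limma called 51.4% lower and 12.4% higher in this comparison, with a median of -0.51. Under quantile normalization 4 were called lower, after median scaling 3 were lower and 2 higher, and when scaled to Sertoli markers 2 were called higher and none lower. Of all 14675 genes, these scalings called 2761 lower and 2448 higher, 1419 and 3100, and 1 and 5490. Gapdh had -0.94 ± 0.30 (369 ± 111 FPKM in control, 186 ± 9.25 in busulfan), with an adjusted p of 0.0181 by limma. Leaving out a library took this to 0.0541 (control replicate 1), 0.0793 (control replicate 3) or 0.0514 (busulfan replicate 2). Pgk1, the form of the X chromosome, had -1.02 ± 0.27, Pgam1 -1.64 ± 0.38, and Ldhb, the heart form of lactate dehydrogenase, -1.77 ± 0.41, with adjusted p of 0.00926, 0.00585 and 0.00604. Hk2 had -1.30 ± 0.43 with an adjusted p of 0.0229 by limma, which rose to 0.0698 or 0.0769 when control replicate 1 or 3 was left out and to 0.0632 or 0.0683 when busulfan replicate 2 or 3 was. Eno3, the muscle enolase, had -0.80 ± 0.22 and Aldoc, the brain aldolase, -1.46 ± 0.34, with adjusted p of 0.0106 and 0.00635 by limma. The counterparts Ldha, Eno1 and Aldoa did not pass, with log2 changes of -0.07, 0.15 and 0.07. The fall of Gapdh, Pgk1 and Hk2 became a rise of 0.60, 0.53 and 0.25 on the Sertoli scale, and that of Pgam1 and Ldhb shrank to -0.10 and -0.23.

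Of 18 other glycolysis genes, 15 were tested, and 3 were called higher and 2 lower, with a median log2 change of -0.06. Limma called 12.4% of all genes tested higher and 51.4% lower. Gpi1, glucose-6-phosphate isomerase, had 1.59 ± 0.25 (53.4 ± 13.1 FPKM in control, 160.5 ± 21.8 in busulfan), with an adjusted p of 0.00381 by limma. Aldoart2, the other aldolase retrogene, had 1.62 ± 0.37, close to the 1.65 of Aldoart1, with an adjusted p of 0.00568. Tpi1, triosephosphate isomerase, had 0.50 ± 0.18, with an adjusted p of 0.0294 by limma. That adjusted p lay between 0.0562 and 0.0956 without control replicate 1, 2 or 3 or busulfan replicate 1 or 3. With quantile normalization the change of Tpi1 was 0.34, with an adjusted p of 0.112 by limma. The rises of Gpi1, Aldoart2 and Tpi1 turned negative when scaled to elongating spermatid markers. The lower ones were Pfkl, the liver form of phosphofructokinase (-1.45), and Adpgk, an ADP-dependent sugar kinase (-1.04). The list had 2 genes higher and 0 lower without control replicate 1, control replicate 3 or busulfan replicate 3, 3 higher and 0 lower without busulfan replicate 2, and 3 higher and 5 lower without L.J. replicates 2 and 3. Over all genes tested, the fits without a control or busulfan library named here called 1345 to 1556 higher and 4497 to 5525 lower. The fit without L.J. replicates 2 and 3 called 2281 higher and 8661 lower. The list had 8 higher and 0 lower after median scaling, where 3100 of all genes were called higher and 1419 lower. Ldhal6b, a testis gene related to lactate dehydrogenase, had -0.12 ± 0.27 (adjusted p = 0.703) and, like Ldhc, its lowest value in L.J. replicate 3. With both treatments against control, 7 counterparts were called lower, and 3 of the other glycolysis genes were higher and 3 lower, the third being Pfkm, the muscle phosphofructokinase (-0.51). Of all genes tested, 53.5% were called lower there and 13% higher. The 3 and 3 of that comparison became 3 and 1 without busulfan plus L.J. replicate 2, control replicate 1 or control replicate 3, 3 and 6 without L.J. replicate 3, 5 and 2 after quantile normalization and 7 and 0 after median scaling. Higher and lower genes of all tested were 1444 to 1616 and 5529 to 6420 in the fits giving 3 and 1. Without L.J. replicate 3 they were 2327 and 8931, after quantile normalization 2644 and 3369, and after median scaling 3437 and 1801. No gene of either list was called by limma in L.J. against control or in busulfan plus L.J. against busulfan, and at an unadjusted p under 0.05 only Aldoc did so, in L.J. against control.

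Likeness of pattern was measured as the root mean square difference between log2(FPKM + 1) values, each gene centred on its mean over the 12 libraries, among 8725 genes with a mean of at least 5 FPKM. The genes nearest to Gapdhs were Sh3rf2 (0.136), Prm3 (0.141), of the protamine gene cluster and itself an elongating spermatid marker used above, and Iqcf3 (0.152). Nearest to Hk1 were Dnaja4 (0.074), a heat shock co-chaperone, Gpd2 (0.093), the mitochondrial glycerol-3-phosphate dehydrogenase, and Cep112 (0.095). Nearest to Pgk2 were Pde1a (0.081), a phosphodiesterase, Tent5c (0.085) and D11Wsu47e (0.089), and nearest to Aldoart1 were Ddi1 (0.092), Creb3l4 (0.093), a transcription factor, and Kif2c (0.094), a kinesin. Dynlrb2 (0.080), a dynein light chain, Mok (0.090) and Rnf126 (0.090) were nearest to Ldhc, and Hrasls5, Rfx4 and Efcab6 (0.094 each) to Pgam2. Eno4 had the most distant neighbours along with Gapdhs, namely Donson (0.150), Vps26a (0.161) and Foxh1 (0.164). Among the isozymes themselves, Aldoart1 and Pgk2 were closest (0.154), followed by Aldoart1 and Hk1 (0.189) and by Ldhc and Pgam2 (0.246), and Gapdhs and Eno4 were farthest apart (1.57).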

How the data were processed

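The authors deposited FPKM for each gene in each library. Bowtie 0.12.2 and the build mm10 are named in the submitters' processing notes; the sources used here name no quantifier, annotation, filter or scaling. Genes with at least 1 FPKM in at least 3 libraries were kept (14675 of 21004). Values were transformed as log2(FPKM + 1), which understates changes of low genes, and fitted with limma 3.58.1 in R 4.3.3 (trend, not robust; all 12 libraries; 8 residual and 3.44 prior degrees of freedom). P-values were adjusted by Benjamini-Hochberg over all genes tested within a comparison, threshold 0.05. The fit was tested on simulated data. The isozymes and gene lists were chosen with earlier results of these data known, and counts over them are descriptions. Named genes were the 7 isozymes, their counterparts, genes of the lists past the threshold, and the 3 nearest genes by pattern, passing over predicted genes. Some other genes of the lists are given as counts, and 1 gene of a list is not reported here. Alternatives were other pseudocounts, filters, scalings, variance models, a replicate block, a fit of the compared groups, and leaving out libraries. No library duplicated another. Sequences and positions are from RefSeq, and exons and overlaps from GENCODE M21, both GRCm38. Figures were drawn with matplotlib 3.10.9.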

Additional observations from a re-analysis of the deposited data

How the results depend on the processing

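Directions of Gapdhs, Hk1, Aldoart1 and Pgk2 and their side of the threshold held in busulfan against control under 23 of 24 alternatives each. Filters, variance models, the replicate block, the fit of the compared groups and leaving out libraries of other groups cannot change the log2 change. Those settings could move only the side of the threshold. Only pseudocounts, scalings and leaving out a control or busulfan library could move the direction. The exception was scaling to elongating spermatid markers, and its cause was not tested. On that scale the log2 changes in busulfan against control were -0.27 for Gapdhs, -1.59 for Pgk2, -2.84 for Ldhc, -2.46 for Pgam2, -1.10 for Hk1, -1.44 for Aldoart1, -2.94 for Eno1, -3.02 for Aldoa, -1.50 for Gpi1, -2.60 for Tpi1 and -1.48 for Aldoart2, and 6 isozymes were called, all lower. With both treatments against control it gave -1.85 for Pgk2, -2.98 for Ldhc, -2.42 for Pgam2, -1.12 for Hk1 and -1.53 for Aldoart1. There 6 isozymes were called lower, as were 14271 of all 14675 genes, with 0 genes higher. Quantile normalization gave -0.48 for Ldhc in that comparison, called lower. Scaling to Sertoli markers turned Gapdh, Pgk1 and Hk2 to 0.60, 0.53 and 0.25. All genes called in busulfan against control, 9350 as deposited, were 5209 with quantile normalization, 4519 (3100 higher) with median scaling, 5491 (5490 higher) on the Sertoli scale, 14238 (0 higher) on the elongating spermatid scale, and 5842 to 10909 when a library was left out, lowest without control replicate 3. With both treatments against control, 9759 became 6013, 5238 (3437 higher) and 3660 (3655 higher) under the first 3 of these. Of all genes called, 19.4% were higher in busulfan against control as deposited, 47% with quantile normalization, 68.6% with median scaling and 99.98% on the Sertoli scale. In busulfan plus L.J. against busulfan, 0 genes became 1 in a fit of those groups alone and 1 without a filter, and 0 to 1 when a library was left out. The interaction had 1 gene without a filter and 0 to 1 when a library was left out. The labels do not say that a replicate number marks a shared animal or day. Same-numbered libraries of the 4 groups correlated from -0.175 to 0.759 in their deviations from group means, and differently numbered ones from -0.741 to 0.292. The highest values, 0.759 and 0.62, were those of L.J. with control for replicates 2 and 3. With the replicate block, 9591 genes and 4 isozymes were called in busulfan against control, and 5 isozymes with both treatments against control. FPKM without counts give no counting error, so the precision of Eno4, the lowest isozyme, cannot be separated into counting and library spread.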
